A study of Mus musculus with 23 samples.

Results

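The genes described here encode adhesion proteins that reach across the synaptic cleft: the neurexins Nrxn2 and Nrxn3, the neuroligins Nlgn1 and Nlgn3, and the leucine-rich repeat proteins Lrrtm1, Lrrtm2, Lrrtm3 and Lrrtm4. They were taken by name, as the rows of the deposited gene counts whose Ensembl identifiers carry these symbols in the GRCm39 annotation, a rule that uses no measured value. They are 8 of 56941 genes listed. All 8 had a row and passed the filter on low counts, which kept 14488 genes for testing.

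Neurexins sit mainly in the presynaptic membrane. They bind neuroligins, LRRTM proteins and several secreted proteins on the other side, and their short cytoplasmic ends dock onto PDZ scaffolds such as CASK. Neuroligins are postsynaptic: Nlgn1 is best known from glutamatergic synapses, and Nlgn3 from both glutamatergic and GABAergic ones. Both bind the scaffold PSD-95 through their last residues. LRRTM proteins are postsynaptic neurexin ligands of glutamatergic synapses, known for holding AMPA receptors there, and Lrrtm3 and Lrrtm4 also bind heparan sulfate chains. Each neurexin gene makes long alpha and short beta forms and many splice variants, which one count per gene cannot tell apart.

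The study asked what happens to neurons that lose Nedd8, the small ubiquitin-like protein that is attached to cullins and other targets. Hippocampal neurons were cultured from newborn (P0) homozygous NEDD8cKO mice, in which loxP sites flank part of the Nedd8 gene, so that both groups carried the floxed allele. One day after plating they received a lentivirus in which the Synapsin1 promoter drove either RFP (RFP group) or CRE recombinase with RFP (CRE group). For the RNA the labels give day 12 in vitro, counted from plating, whereas the study's methods give the day after. The Synapsin1 promoter is active mainly in neurons, while the RNA came from the whole dish. There were 12 CRE and 11 RFP libraries of stranded mRNA-seq. Each is named here by its group and the 2 numbers of its label (CRE 1-3), of which the first runs from 1 to 3 and is called the culture number below, although no source used here says in words what it marks. The methods count 3 animals or biological replicates for the RNA-seq, so these numbers may mark them. The labels do not say whether libraries of one number came from separate dishes. The p-values over libraries therefore measure the spread between these libraries, which may be partly technical, and a fit on counts summed per culture number is given beside them.

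The main comparison used the 21 libraries of the study's count table, 11 CRE and 10 RFP, with 7430401 to 17112815 counts each. CRE 3-3, with 1546796 counts, and RFP 3-2, with 24.2% of its counts on one ribosomal RNA gene, were outside it. Nedd8 itself stood at 61.4 ± 10.2 CPM (reads of a gene scaled to a common library size, SD, n = 10) in the RFP libraries, and CRE held 11.5 ± 3.49 CPM (SD, n = 11), with no overlap between the groups. The libraries CRE 1-3, CRE 3-3 and RFP 2-4 stood apart from all others: mitochondrial genes took 0.261%, 1.83% and 3.44% of their counts against 6.997% to 11.1% elsewhere, and their levels shifted with the GC content of the gene. Results that rest on them are given with and without them.

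The ends of the coding sequences are shown because the ends of neurexins, neuroligins and several LRRTM proteins meet intracellular scaffolds, and because they show how alike and how different the members are at the RNA level at which they were counted. Each line gives the last 30 coding bases of the Ensembl canonical transcript (GENCODE M39, GRCm39), 5′ to 3′ on the coding strand, with the 12 bases of the last 4 codons in capitals and the stop codon after them in lower case.
Nrxn2: aagaacaaagacaaaGAGTATTACGTCtga
Nrxn3: aaaaacaaggacaagGAGTATTATGTGtaa
Nlgn1: ccccattcacattcaACAACCAGGGTAtag
Nlgn3: ccccactcacactccACTACCCGTGTAtag
Lrrtm1: cagcagcctgcgaggGAATGCGAGGTGtga
Lrrtm4: atctctggctccaggGAGTGTGAGGTAtga
Lrrtm3: atcagtgaccataaaCCACAGCTGGCCtga
These stretches lie at chr19:6582149-6582178 on the plus strand for Nrxn2, at chr12:90299155-90299184 (plus) for Nrxn3, at chr3:25487802-25487831 (minus) for Nlgn1 and at chrX:100363839-100363868 (plus) for Nlgn3. Those of the LRRTM genes lie at chr6:77222084-77222113 (plus) for Lrrtm1, chr6:80000120-80000149 (plus) for Lrrtm4 and chr10:63765837-63765866 (minus) for Lrrtm3. Of the 30 bases, 24 were identical between Nrxn2 and Nrxn3, and 24 between Nlgn1 and Nlgn3. Lrrtm1 and Lrrtm4 shared 9 of the 12 capital bases, whereas the canonical Lrrtm3 transcript ended differently and shared 3 with Lrrtm1 and 2 with Lrrtm4. The end of Lrrtm2, which is not shown, shared 9 of those bases with Lrrtm1 and 10 with Lrrtm4.

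Over the whole coding sequence the paralogs were far enough apart to be counted separately. Nrxn2 and Nrxn3 were identical at 69% of 4684 aligned bases, Nlgn1 and Nlgn3 at 70.2% of 2404, and pairs of LRRTM genes at 58.2% to 66.8%. The share of a member's 50-base words that also occur on the same strand in another gene was 0.21% or less for 7 members. The exception was Nlgn3, at 39.84%. The long non-coding RNA Gm21986 is annotated over 3823 of its exon bases on the same strand. Words of Nlgn3 also occur, on either strand, in transcripts of many other genes, such as 1700057H21Rik and 1810034E14Rik. How much of the 39.84% each of these genes accounts for was not separated. Gm21986 held a median of 4 and at most 59 counts per library, while Nlgn3 held 221 to 2290 counts in the fitted libraries. Since the setting for shared reads is not given, these counts do not show how many reads in the shared bases were left uncounted.

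Nlgn1, Nlgn3, Lrrtm1 and Lrrtm2 were lower in CRE, and no member was higher. These 4 of the 8 passed an adjusted p under 0.05 in edgeR (quasi-likelihood test, Benjamini-Hochberg over the 14488 genes). Across all genes tested 30.2% were called, 13.8% as lower and 16.4% as higher. Nrxn2, Nrxn3, Lrrtm3 and Lrrtm4 did not pass. With counts summed per group and culture number, 3 sums against 3, the same 4 passed: Nlgn3 at -0.97 (adjusted p = 0.000229), Nlgn1 at -0.87 (7.17e-05), Lrrtm2 at -0.64 (0.00149) and Lrrtm1 at -0.60 (0.00427). The share of all genes called lower in that fit is not given here, so this count of members has no background beside it. The median log2 fold change of the 8 was -0.46, against 0.02 for all genes tested, and none passed the study's joint thresholds of an absolute log2 fold change over 1.3 and a -log10 p over 6, applied here to adjusted p, which 1.39% of genes passed in either direction and 0.297% as lower.

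**Figure D1:**
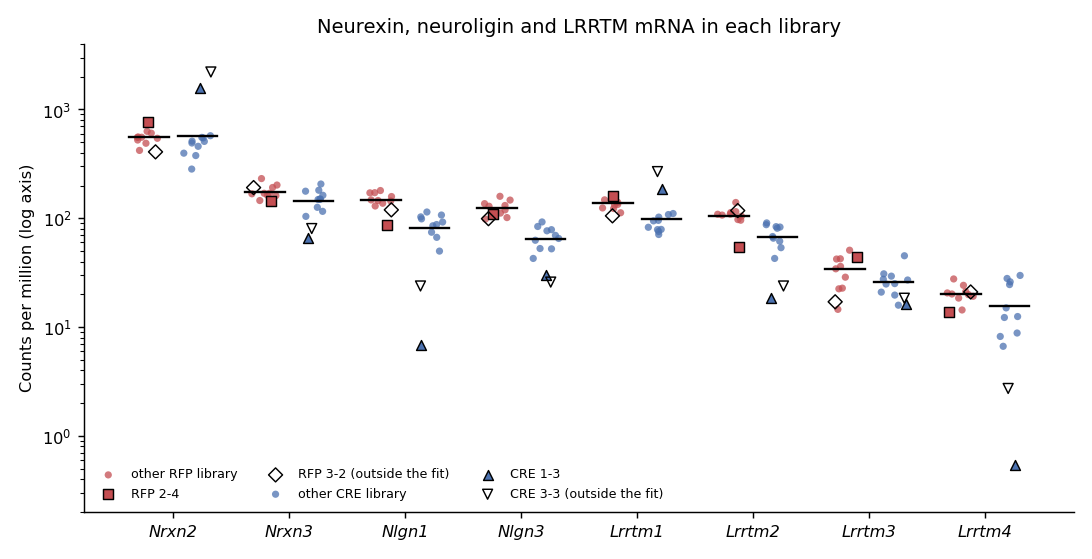
Level of each of the 8 genes in each of the 23 libraries, in CPM on a log axis, RFP in red and CRE in blue, with bars at the means of the 21 fitted libraries. Large symbols mark CRE 1-3, CRE 3-3, RFP 2-4 and RFP 3-2, and open symbols the libraries outside the fit. The CRE levels of Nlgn3 lie at 30.1 to 92.5 CPM in the fitted libraries and at 25.9 in CRE 3-3, below every RFP level, while CRE 1-3 and CRE 3-3 lie at the top for Nrxn2 and Lrrtm1 and at the bottom for Nlgn1 and Lrrtm4.

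Nlgn3 showed the largest fold change of the 8 in the main comparison. In the RFP libraries it ranged from 98.3 to 159 CPM with a median of 124, and in the CRE libraries from 30.1 to 92.5 with a median of 65.3. The groups did not overlap, and 2.08% of all genes tested had all of CRE below all of RFP in this way. The mean of CRE was 51.7% of that of RFP (64.3 ± 18.7 against 124 ± 19.8 CPM, SD, n = 11 and 10), and the log2 fold change was -0.97 (SE 0.15, adjusted p = 2.52e-05). Within cultures 1, 2 and 3 it was -1.40, -0.86 and -0.63. Without CRE 1-3 and RFP 2-4 it was -0.91 (adjusted p = 1.12e-06).

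Nlgn1 fell by a similar amount, with a larger spread. Its RFP libraries ranged from 86.9 to 180 CPM with a median of 147, and its CRE libraries from 6.81 to 114 with a median of 87.6. Both extremes were libraries that stood apart: RFP 2-4 was the lowest of RFP and CRE 1-3 the lowest of CRE. With those left aside, the highest CRE library (114 CPM) lay below the lowest RFP library (130 CPM). The log2 fold change was -0.89 (SE 0.25, adjusted p = 0.00887), with -1.06, -0.76 and -0.87 within cultures 1, 2 and 3. Leaving out CRE 1-3 and RFP 2-4 gave -0.83 with a smaller SE of 0.11 (adjusted p = 1.26e-06). On all 21 libraries the call was lost when culture 2 was left out (adjusted p = 0.108) or culture 3 (0.0544), and it was kept in both cases once CRE 1-3 and RFP 2-4 were left out too (0.000773 and 1.26e-06).

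Lrrtm1 changed less in size but as regularly, apart from one library. Its RFP libraries lay between 112 and 161 CPM with a median of 137, and its CRE libraries between 70.9 and 184 with a median of 94.7. Below all of RFP lay 10 of the 11 CRE libraries, and CRE 1-3 lay above all of it. The log2 fold change was -0.50 (SE 0.14, adjusted p = 0.00647), and -0.60 (SE 0.09, adjusted p = 3.55e-06) without CRE 1-3 and RFP 2-4. With all 23 libraries, which adds CRE 3-3 at 269 CPM, it was -0.26 and was not called (adjusted p = 0.306). It was also not called without culture 2 (0.159) or culture 3 (0.0716), and was called in both cases without CRE 1-3 and RFP 2-4 (0.00013 and 3.5e-05).

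Lrrtm2 was lower in CRE by an amount between those of Lrrtm1 and Nlgn1. It ranged from 54.3 to 140 CPM in RFP, with a median of 108, and from 18.7 to 90.7 in CRE, with a median of 67.9. The groups overlapped only through RFP 2-4, the lowest RFP library, since the next one stood at 96.0 CPM, above every CRE library. The log2 fold change was -0.66 (SE 0.19, adjusted p = 0.0101) and within cultures -0.91, -0.41 and -0.69. It was -0.64 (adjusted p = 4.91e-05) without CRE 1-3 and RFP 2-4. Without culture 2 or culture 3 the adjusted p was 0.0525 and 0.0509, and 0.00264 and 5.89e-05 when those 2 libraries were left out as well.

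Without CRE 1-3 and RFP 2-4, then, Nlgn1, Nlgn3, Lrrtm1 and Lrrtm2 each had every one of 10 CRE libraries below every one of 9 RFP libraries. Of all genes tested on those libraries, 4.04% showed this separation and 18.7% were called lower. No value of the other 4 members separated the groups in that way.

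Nrxn2, the most abundant member, had a mean in CRE that one library set. Its RFP libraries ranged from 421 to 761 CPM with a median of 555, and its CRE libraries from 283 to 1580 with a median of 509. CRE 1-3 held the value of 1580, while the other 10 CRE libraries lay between 283 and 574. The log2 fold change was -0.00 (SE 0.21, 95% interval -0.43 to 0.42, adjusted p = 0.998). Leaving out CRE 1-3 alone gave -0.28 and a call (adjusted p = 0.0416), leaving out RFP 2-4 too gave -0.23 (0.0868), and adding CRE 3-3 (2213 CPM) and RFP 3-2 to the 21 libraries gave 0.36 (0.34). More of all genes were also called without CRE 1-3 than in the main comparison, so the added call is not read as a result about Nrxn2. The direction for Nrxn2 therefore depended on the libraries used, and scaling by DESeq2 size factors also turned its sign (0.01).

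Nrxn3 was lower in CRE in each culture without passing the test, by little in culture 1 once CRE 1-3 was left out. It ranged from 143 to 232 CPM in RFP and from 65.4 to 207 in CRE, with medians of 169 and 150, and 4 of 11 CRE libraries lay below all of RFP. The log2 fold change was -0.29 (SE 0.15, 95% interval -0.59 to 0.01, adjusted p = 0.137). Within cultures 1, 2 and 3 it was -0.30, -0.27 and -0.27. Without CRE 1-3, the lowest CRE library, and RFP 2-4 these were -0.09, -0.34 and -0.27. The fold change over all cultures was then -0.24 (adjusted p = 0.0735). Nrxn3 passed when each library's trend with GC content was removed (-0.29, adjusted p = 0.0479), and when CRE 3-4 was left out (-0.39, adjusted p = 0.0403). In 35 of its 39 alternatives it was not called. One of these left out CRE 1-3 and CRE 3-3, which the study's methods name as removed (-0.21, adjusted p = 0.12). The shares of all genes called in the fits that called Nrxn3 are not given here.

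The remaining LRRTM genes were the least abundant members, and their groups overlapped widely. Lrrtm3 ranged from 14.6 to 50.9 CPM in RFP and from 15.9 to 45.2 in CRE, with no CRE library below all of RFP, and its log2 fold change was -0.42 (SE 0.20, 95% interval -0.83 to -0.00, adjusted p = 0.124). It was called when either CRE 2-3 (adjusted p = 0.0275) or RFP 3-1 (0.0422) was left out. In 37 of its 39 alternatives Lrrtm3 was not called, among them that without CRE 1-3 and RFP 2-4 (-0.32, adjusted p = 0.219). Lrrtm4 ranged from 13.6 to 27.7 CPM in RFP and from 0.545 to 29.8 in CRE, where the lowest value was CRE 1-3 with 4 reads. Its log2 fold change was -0.36 (SE 0.34, 95% interval -1.06 to 0.34, adjusted p = 0.464), an interval that holds both 0 and the fall seen for Lrrtm2. Without CRE 1-3 and RFP 2-4 it was -0.28 (adjusted p = 0.391).

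**Figure D2:**
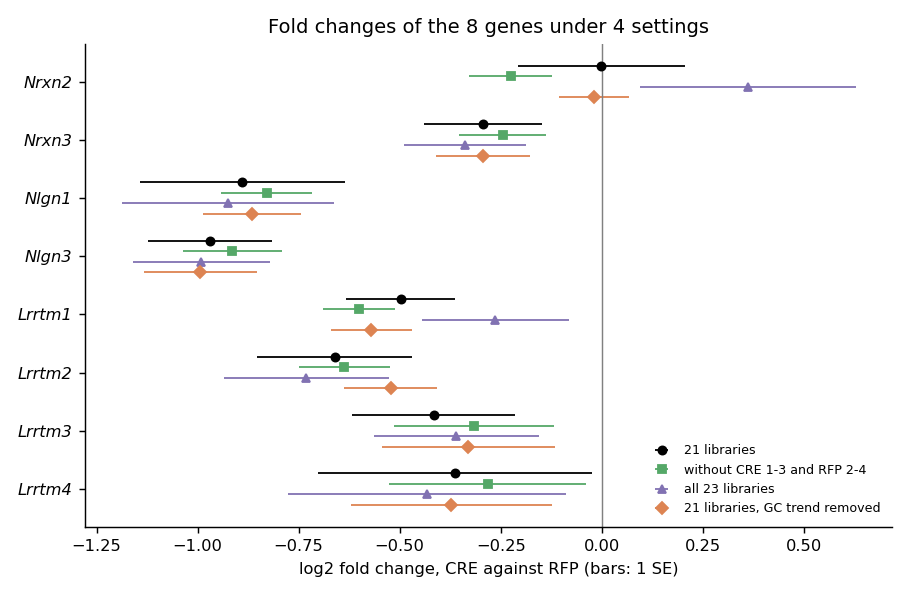
log2 fold change of each of the 8 genes between CRE and RFP, with bars of 1 SE, in the 21 libraries (black), without CRE 1-3 and RFP 2-4 (green), in all 23 libraries (purple) and with each library's GC trend removed (orange). Nlgn1, Nlgn3 and Lrrtm2 lie between -0.99 and -0.52 under these settings, and Nrxn2 between -0.23 and 0.36.

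The difference between groups was not shown to vary between the cultures. In a test of the group by culture interaction no member passed (adjusted p of 0.977 or more), and 1 of all genes tested did (0.0069%). In the main comparison every member but Nrxn2 had a negative log2 fold change in each of the 3 cultures. Nrxn2 was at 0.38 in culture 1, which holds CRE 1-3, and at -0.38 and -0.07 in cultures 2 and 3. These signs depended on the libraries used. Without CRE 1-3 and RFP 2-4 Nrxn2 was at -0.33, -0.28 and -0.07, and with all 23 libraries at 0.41, -0.36 and 0.94. Lrrtm3 in culture 3 was at -0.04 in the main comparison and at 0.005 with all 23 libraries. Without CRE 1-3 and CRE 3-3 it was at 0.07.

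In CRE 1-3 and CRE 3-3 the members with the most GC stood high and those with the least stood low. In CRE 1-3 Nrxn2 was at 1580 CPM against a mean of 470 in the other 10 CRE libraries, a log2 ratio of 1.75. GC content is that of a gene's longest annotated transcript, 62.4% for Nrxn2. Lrrtm1 (52.3%) was at a log2 ratio of 1.04. The AT-rich Lrrtm4 (38.7%), Nlgn1 (38.9%) and Lrrtm2 (38.5%) were at -4.98, -3.69 and -1.94. CRE 3-3 showed the same signs, from 2.23 for Nrxn2 to -2.66 for Lrrtm4. RFP 2-4 deviated less, from 0.49 for Nrxn2 to -1.02 for Lrrtm2, and less in step with GC, since Lrrtm3 (43.2%) was at 0.43 while Nrxn3 (47.5%) and Nlgn3 (49.5%) were at -0.31 and -0.19. Over 14347 genes with a known GC content, the rank correlation of a library's deviation with GC was 0.723 in CRE 1-3, 0.53 in CRE 3-3 and 0.395 in RFP 2-4, and between -0.311 and 0.094 in the other 20 libraries, as a description across genes that share one library. With this trend removed, the 4 members called in the main comparison were again called lower, and Nrxn3 passed too (adjusted p = 0.0479). The share of all genes called lower in that fit is not given here, so the added call is not read as a result about the members.

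**Figure D3:**
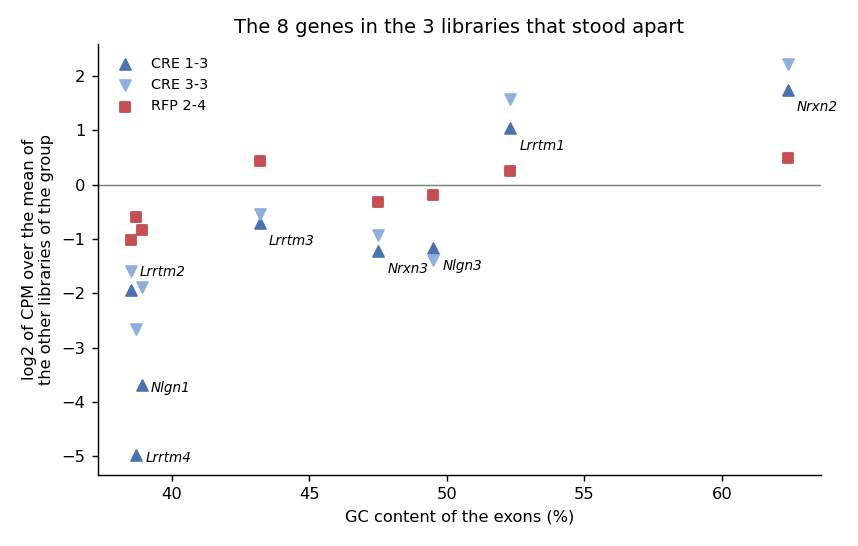
log2 ratio of each gene's level in CRE 1-3, CRE 3-3 and RFP 2-4 to the mean of the other fitted libraries of the same group (10 CRE or 9 RFP), against GC content in percent. The GC content is that of the gene's longest transcript, although the axis names the exons. Nrxn2 at 62.4% and Lrrtm1 at 52.3% lie above 0 in all 3 libraries, and Nlgn1, Lrrtm2 and Lrrtm4 at 38.5% to 38.9% lie below 0 in all 3.

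Levels can be compared between genes only per length, so CPM was divided by the length of all annotated exons in kb. In RFP the order was Nrxn2 (40.9 ± 6.53 CPM per kb), Lrrtm1 (33.7 ± 3.64), Lrrtm2 (17.2 ± 3.53), Nrxn3 (13.8 ± 2.12), Nlgn3 (13.4 ± 2.13), Nlgn1 (10.4 ± 1.90), Lrrtm3 (7.16 ± 2.44) and Lrrtm4 (3.24 ± 0.673; SD, n = 10 each). Lrrtm1 and Lrrtm2 did not overlap across libraries, at 27.6 to 39.6 against 8.96 to 23.04 CPM per kb. All other neighbours in the order overlapped. The length used for Nlgn3 includes the exon bases it shares with Gm21986, where reads may not all have been counted, so its level may be too low. In CRE the order was the same except that Nrxn3 (11.4 ± 3.13) and Lrrtm2 (11.03 ± 3.63) changed places, and these differed by less than their spread. Nlgn1 and Nlgn3 moved close to Lrrtm3 in CRE, with 6.92 ± 2.01 for Nlgn3, 5.71 ± 2.18 for Nlgn1 and 5.44 ± 1.73 for Lrrtm3 (SD, n = 11 each).

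The makeup of each family within a library was compared as a share of raw counts, which needs no scaling between libraries. None of 6 shares differed between groups by a permutation test over libraries (two-sided, 100000 resamples, adjusted p = 0.878 for each). Nlgn1 gave 54.0% ± 4.93 of the summed Nlgn1 and Nlgn3 counts in RFP and 53.0% ± 12.5 in CRE (SD, n = 10 and 11). The CRE range of 18.4% to 64.5% had CRE 1-3 at its foot. Without CRE 1-3 and RFP 2-4 the share was 55.2% ± 3.68 in RFP and 56.4% ± 5.25 in CRE, a difference of 1.26 percentage points. Nlgn1 and Nlgn3 were thus both lower in CRE with no detectable shift between them.

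Among the LRRTM genes, Lrrtm1 gave 46.5% ± 5.72 of the counts in RFP and 47.9% ± 13.3 in CRE. Lrrtm2 gave 35.3% ± 6.78 and 32.3% ± 8.69, Lrrtm3 11.5% ± 3.86 and 12.4% ± 2.94, and Lrrtm4 6.74% ± 1.33 and 7.38% ± 4.10. In CRE 1-3 alone Lrrtm1 took 83.8% and Lrrtm4 0.248%. Nrxn2 gave 76.0% ± 5.39 of the Nrxn2 and Nrxn3 counts in RFP and 77.3% ± 6.79 in CRE, with CRE 1-3 at 96.0%. The signs of the differences for Nrxn2, Nlgn1 and Lrrtm1 turned when CRE 1-3 was left out.

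**Figure D4:**
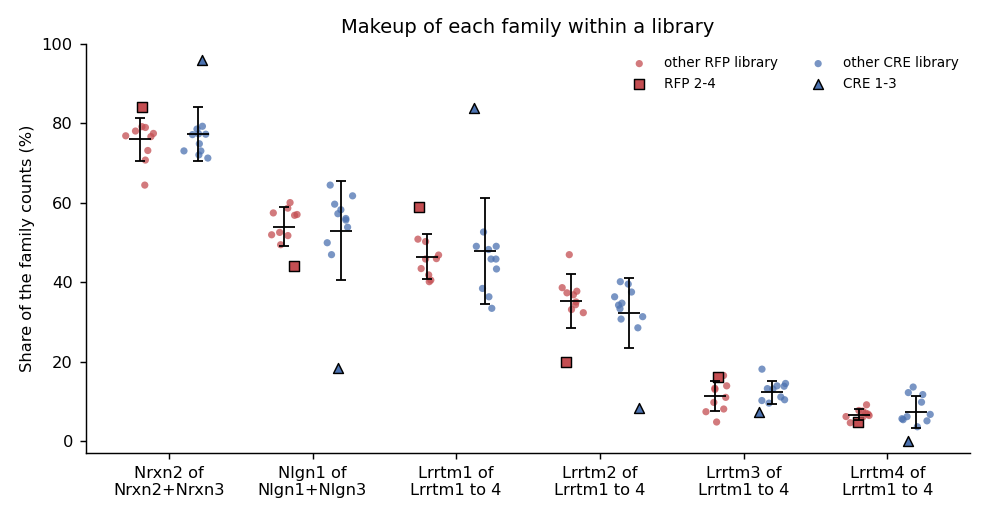
Share of each gene in the summed counts of its family within a library, in percent, in the 21 fitted libraries, RFP in red and CRE in blue, with bars for mean and SD. The groups overlap for every share, and CRE 1-3 (triangle) lies outside the other libraries for Nrxn2, Nlgn1, Lrrtm1, Lrrtm2 and Lrrtm4.

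Several members lie inside or across other genes, which matters for how their reads were assigned. Lrrtm1, Lrrtm2 and Lrrtm3 lie within the alpha-catenin genes Ctnna2, Ctnna1 and Ctnna3, each on the opposite strand. Alpha-catenins link cadherins to actin. Lrrtm2 (chr18:35342056-35348120, minus strand) shares 138 exon bases with Ctnna1, and the other 2 share none with their hosts. Ctnna1 rose in CRE, from 43.4 ± 7.62 to 86.3 ± 22.1 CPM (log2 fold change 0.97, adjusted p = 1.03e-05), while Lrrtm2 inside it fell. Ctnna2 fell from 118 ± 11.1 to 91.8 ± 23.5 CPM (-0.38, adjusted p = 0.0463, and 0.0674 with all 23 libraries), and Ctnna3, at 0.313 and 0.656 CPM, was too low to be tested. The sources used here do not state whether the counting used strand, although the kit keeps it.

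On the opposite strand, the other exon overlaps were 682 bases of Nrxn2 with Slc22a12 and 207 with Gm14964, 439 bases of Nrxn3 with Gm37980, 1229 of Nlgn1 with A830092H15Rik, and 1543 of Lrrtm4 with Gm4409. These partners were scarce, with at most 76 counts in a library for A830092H15Rik and fewer for the others. Nrxn2 held 3728 counts in its lowest fitted library. The settings for strand and shared reads are not given, so the partners' counts do not show how many reads in the shared bases were left uncounted.

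The secreted and membrane partners of neurexins and neuroligins moved both ways. Of 25 listed, 23 were tested, 7 were called lower and 2 higher (13.8% and 16.4% over all genes tested), with a median of -0.25. The strongest rise was that of Gpc4, a glypican that serves as a presynaptic receptor of Lrrtm4, from 35.4 ± 6.81 CPM (23.02 to 44.1) to 108 ± 24.9 (69.6 to 166), with a log2 fold change of 1.58 (adjusted p = 3.92e-09). All of CRE lay above all of RFP, as for 2.64% of genes tested. Dag1, which encodes the neurexin-binding dystroglycan, rose by 0.73 (adjusted p = 8.54e-05). C1ql2, a secreted protein that links neurexins to kainate receptors at mossy fibre synapses, had the largest fall, from 22.4 ± 8.86 to 6.44 ± 4.51 CPM (-1.83, adjusted p = 9.78e-05). Clstn2, a calsyntenin of the postsynaptic membrane, fell by 0.88 on the log2 scale (adjusted p = 1.27e-05), with no overlap between the groups. Without CRE 1-3 and RFP 2-4 the list had 11 lower (18.7% over all genes tested) and 3 higher (2839 of 14666 genes).

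Of 18 cytoplasmic partners 8 were called lower and 1 higher, beside the same 13.8% and 16.4% over all genes, with a median of -0.35. Dlg2, which encodes the scaffold PSD-93 that binds neuroligin ends, fell from 524 ± 33.8 CPM (476 to 572) to 216 ± 67.0 (52.3 to 296), a log2 fold change of -1.30 (adjusted p = 3.16e-06). Dlgap1, a scaffold that joins PSD-95 to Shank proteins, fell by 0.71 on that scale (adjusted p = 4.1e-05), and Shank2 by 0.54 (adjusted p = 0.000945). Epb41l3, a protein 4.1 family member that ties membrane proteins to actin, rose by 0.36 (adjusted p = 0.0135). Without CRE 1-3 and RFP 2-4 the counts were 11 lower and 2 higher, beside 2743 lower and 2839 higher of all 14666 genes tested. With all 23 libraries they were 4 lower and 1 higher, beside 1692 lower and 2357 higher of 14382 genes.

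Other synaptic adhesion genes were mostly lower where they changed. Of 42 listed, 41 were tested, 16 were called lower and 1 higher, beside 13.8% and 16.4% over all genes, with a median of -0.33. The neuronal pentraxins, secreted proteins that cluster AMPA receptors, went opposite ways: Nptx2 rose from 12.5 ± 6.29 to 48.1 ± 24.3 CPM (log2 fold change 1.93, adjusted p = 1.3e-05), whereas Nptx1 fell from 263 ± 86.5 to 117 ± 62.9 (-1.18, adjusted p = 0.000723). Nptxr, their membrane-bound receptor, fell by 1.15 on the log2 scale (adjusted p = 1.88e-06). Lrrc4, the netrin-G ligand NGL-2, fell from 138 ± 12.4 to 82.9 ± 9.93 CPM (-0.76, adjusted p = 3.68e-07), with the smallest p of this list. Without CRE 1-3 and RFP 2-4 the counts were 24 lower and 2 higher, beside 2743 lower and 2839 higher of all 14666 genes.

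**Figure D5:**
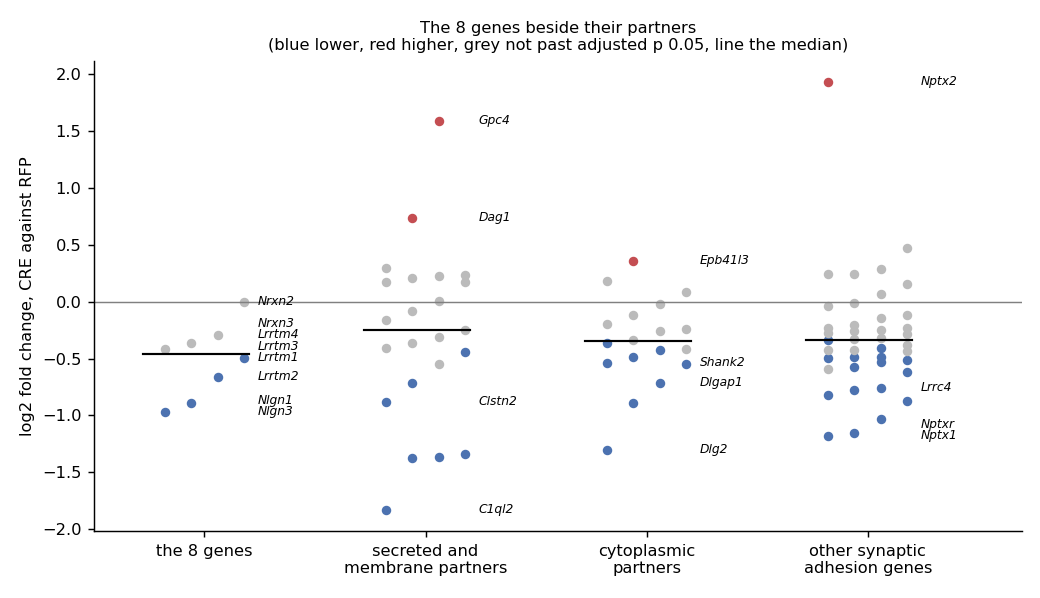
log2 fold change between CRE and RFP of the 8 genes, of 23 secreted and membrane partners, of 18 cytoplasmic partners and of 41 other synaptic adhesion genes. Each point is a gene, blue if called lower, red if called higher and grey otherwise, and lines mark the medians at -0.46, -0.25, -0.35 and -0.33.

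Of the 3 Sam68 family splicing factors that act on neurexin transcripts, Khdrbs2 fell from 4.62 ± 1.80 to 1.81 ± 1.13 CPM (-1.37, adjusted p = 0.00652). Khdrbs1 was at 111 and 106 CPM (-0.09, adjusted p = 0.586) and Khdrbs3 at 83.2 and 77.7 CPM (-0.12, adjusted p = 0.485). Whether the use of neurexin exons differed cannot be read from counts per gene.

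The genes whose levels ran most like each member were found by the mean absolute difference of centred log2(CPM + 1) over the 21 libraries, which was 0.44 to 0.722 for the median gene. For Nlgn3 they were Gnal (0.134) and Gria1 (0.154), an AMPA receptor subunit. For Nlgn1 they were Nexmif (0.14) and Eid1 (0.158), for Lrrtm1 Ywhag (0.111) and Mvb12b (0.112), and Gpr155 (0.157) was near Lrrtm2. Nrxn2 ran closest to Lrrc4b (0.0795), another netrin-G ligand gene, and to Atp9a (0.104), and Nrxn3 to Armcx3 (0.144) and Cntnap2 (0.146). The nearest genes were farther away for the scarcer members, with Ptprd (0.223) and Ssbp2 (0.284) for Lrrtm4 and Sertad4b-ps (0.249) and Inka2 (0.263) for Lrrtm3. Since CRE 1-3 and RFP 2-4 were among the libraries, likeness included their shift.

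In these bulk samples, fewer neurons in a dish and less mRNA per neuron cannot be told apart. The marker counts stand beside 13.8% called lower and 16.4% higher over all genes tested in the 21 libraries. Without CRE 1-3 and RFP 2-4 those were 2743 lower and 2839 higher of 14666 genes. Of 11 general neuronal markers 5 were called lower and 1 higher. Their summed level ran from 3614 to 6704 CPM in CRE and from 6598 to 7836 in RFP. Of 8 glutamatergic markers 5 were lower and 1 higher, at 989 to 1640 CPM in CRE against 2560 to 4593 in RFP. GABA neuron markers had 2 lower and 2 higher of 9 (1513 to 2821 CPM in CRE, 2131 to 3421 in RFP). Astrocyte markers had 4 lower and 2 higher of 9 (1640 to 5276 and 3693 to 7939 CPM), and oligodendrocyte lineage markers 6 lower of 9 (447 to 1980 and 678 to 1968). The counts without CRE 1-3 and RFP 2-4 were 6 lower and 0 higher for neurons (4105 to 6704 CPM in CRE), 6 and 1 for glutamatergic neurons, 3 and 0 for GABA neurons, 4 and 2 for astrocytes, and 7 and 0 for the oligodendrocyte lineage (447 to 1065 CPM in CRE). The part of these differences in the lower levels of Nlgn1, Nlgn3, Lrrtm1 and Lrrtm2 was not tested. Microglial markers summed to at most 7.70 CPM, and endothelial and mesenchymal ones to 16.5 to 386.5 CPM in CRE and 17.6 to 145 in RFP. Of these last lists 2 of 8 and 7 of 10 genes could be tested, with 1 higher in each and 1 lower among the endothelial and mesenchymal markers.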

How the data were processed

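The deposited files hold raw gene counts per library, made by the authors with bcl2fastq 2.20.0.422, STAR 2.7.8a and featureCounts 1.5.0-p1 on GRCm39 (per the labels), and the settings for strand and shared reads are not given in the sources used here. Identifiers were named with GENCODE M39. The main comparison fitted 11 CRE and 10 RFP libraries with edgeR 4.0.16 in R 4.3.3 (filterByExpr, TMM factors, robust quasi-likelihood test, Benjamini-Hochberg over 14488 genes). CPM used TMM factors over all 23 libraries. The study's methods name CRE 1-3 and CRE 3-3 as removed, while its count table lacks CRE 3-3 and RFP 3-2, and both sets were run. The code was tested on simulated data. Shares were compared by permuting libraries. The deviations of libraries with the same number did not correlate over 0.1 in every culture, so the main fit has no block. The members and lists were chosen with earlier results of these data known. From each list the largest called change in each direction and up to 2 of smallest p are named, with the hosts, the splicing factors, Nedd8 and the 2 genes most like each member. Some results that this rule takes are not reported here. Counts per gene limit the precision to counting error and library spread.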

Additional observations from a re-analysis of the deposited data

Results flagged for a closer look

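Among the 10 RFP libraries of the main comparison, 1 value of the 14 gene and share measures examined lay far from its group by Dixon's criterion for 10 samples (a gap over 0.466 of the range). Lrrtm2 stood at 54.3 CPM in RFP 2-4 and at 96.0 CPM in the next lowest RFP library, a gap of 0.488 of the range. Chance alone gives about 1 such value in 20 groups. The CRE group has 11 libraries and was not examined in this way.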

How the results depend on the processing

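The results were recomputed in 621 combinations of a result and an alternative, and 576 kept their direction and their side of the threshold or, for counts, stayed within 1.5 times. The call for Nlgn3 was kept in all 39 of its alternatives (log2 fold change -1.13 to -0.76). Leaving out 1 culture at a time on the 21 libraries weakened the most calls. Without culture 2 the values were -0.95 for Nlgn1 (adjusted p = 0.108), -0.45 for Lrrtm1 (0.159) and -0.80 for Lrrtm2 (0.0525), and without culture 3 they were -0.92 (0.0544), -0.43 (0.0716) and -0.67 (0.0509). Nlgn3 was then the 1 member called. With CRE 1-3 and RFP 2-4 left out as well, an alternative added after seeing the data, 4 members were called without either culture. The shares of all genes called in those fits are not given here. With counts summed per culture number 4 members and 4198 genes were called. With no filter on low counts 6920 genes were called, against 4370.

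Over the fits that left out 1 library or culture, the log2 fold change ran from -0.28 to 0.24 for Nrxn2, -0.39 to -0.22 for Nrxn3, -0.99 to -0.76 for Nlgn1, -0.64 to -0.43 for Lrrtm1, -0.80 to -0.53 for Lrrtm2, -0.57 to -0.17 for Lrrtm3 and -0.53 to -0.12 for Lrrtm4. Lrrtm4, never called, was at -0.23 without CRE 1-3 and at -0.12 without culture 1, against -0.36. The number of members called ran from 1 to 5, and that of all genes from 2114 (without culture 2) to 5507 (without CRE 1-3). Nrxn2 was at 0.36 with all 23 libraries, 0.0113 with DESeq2, 0.0111 with its size factors and 0.034 with the GC trend removed in 23 libraries, with no call in these. Lrrtm1 was at -0.26 with all 23 libraries and at -0.36 (adjusted p = 0.0819) with their GC trend removed. Nrxn3 was called with the GC trend removed (-0.29), also with a culture block (-0.28) and in 23 libraries (-0.31). The fits that combine the GC trend with a block or with 23 libraries were added after seeing the data. The cause of these changes was not tested.

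The shares turned sign without a call. With the libraries left by the methods the difference was 2.32 percentage points for Nlgn1 and -1.67 for Lrrtm1, and without CRE 1-3 and RFP 2-4 it was 1.26 and -0.847. Lrrtm4 was at -0.0236 with all 23 libraries. Leaving out 1 library or culture gave -0.566 to 3.18 points for Nrxn2, -3.27 to 2.37 for Nlgn1, -2.52 to 3.22 for Lrrtm1, -0.368 to 2.83 for Lrrtm3 and -0.128 to 1.94 for Lrrtm4.

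The labels share numbers between groups, but deviations of libraries with the same culture number correlated at 0.0234, 0.0199 and 0.144, so that the numbers were not taken as pairs. With culture as a block the fold changes were -0.05 for Nrxn2, -0.28 for Nrxn3, -0.89 for Nlgn1, -0.97 for Nlgn3, -0.53 for Lrrtm1, -0.66 for Lrrtm2, -0.36 for Lrrtm3 and -0.38 for Lrrtm4, 4267 genes were called, and no member's call changed. Lrrtm4 had the fewest reads of the members, 4 to 369 per fitted CRE library, of which the 4 were in CRE 1-3.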
